A study of Rattus norvegicus with 862 samples.

Results

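A list of 40 genes of mitosis and the cell cycle was followed in rat hearts after 88 compounds, and 36 of the 40 could be measured. The list holds the division machinery (cyclins and the cyclin-dependent kinase, mitotic kinases, kinetochore and checkpoint proteins, spindle and cytokinesis proteins, and the enzymes that feed DNA synthesis). A gene was represented by the probe set of highest mean among those that carry its symbol alone, and no such probe set existed for Ndc80, Tpx2, Anln and Rrm2. All values are log2 signals from Affymetrix arrays after robust multi-array averaging, so that 1 unit is a doubling of signal, and all changes are treated minus control on that scale. The 36 genes are part of 14217 genes tested together.

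The hearts came from 840 male Sprague Dawley CD-IGS rats, bought at 6 to 8 weeks of age, most of which had received a compound and the others vehicle alone. A compound at a given dose, in a given vehicle and by a given route is called a profile here, and 95 of 97 profiles had controls matched for vehicle and route, for duration and for the campaign in which RNA was extracted, with 3 to 9 treated rats and 3 to 28 control rats each. The campaigns are 5 runs of extraction dates. Treatment lasted 1, 3 or 5 d in the profiles described below. Hearts at 1 d were taken in the afternoon and those at 3 and 5 d in the morning, so the first duration cannot be told apart from time of day. The labels name no litters, so each p-value rests on the spread between single rats, taken as independent. Where the controls came from other studies than the treated rats, compound and study cannot be told apart. Whole hearts were profiled, so fewer cells of a type and less RNA per cell cannot be told apart. Heart muscle genes had a per-rat median log2 level of 13.71 to 13.93 in the 28 water gavage controls of the first campaign. Single arrays stood apart over the profiles described below. Liver genes reached a per-rat median of 10.13 in 1 CMC gavage control (median of its set 5.07). Fat cell genes reached 9.49 in 1 water gavage control (median of its set 5.24). Heart muscle genes were at 12.06 in 1 atenolol rat, 12.256 in 1 dicyclomine rat and 12.435 in 1 control of the dicyclomine rats.

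A cell that divides first copies its DNA, for which thymidylate synthase, thymidine kinase and ribonucleotide reductase supply the building blocks. It then enters mitosis when CDK1 joins cyclins A and B and CDC25 phosphatases lift the inhibitory phosphates from the kinase. Aurora and polo-like kinases, kinetochore proteins and spindle motors then separate the chromosomes, and PRC1, RACGAP1 and ECT2 organise the cut between the daughter cells. Most of these genes are transcribed late in the cycle and are nearly silent in resting cells. In the adult heart the muscle cells rarely divide, and fibroblasts, endothelial cells and blood-derived cells account for much of the division seen.

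In hearts without a compound many members stood low on the array. In the control rats Ccna2 averaged 4.41, Ccnb1 5.18 and Cdk1 6.45, where the median of all genes over all arrays was 7.02, and the files give no detection calls, so changes downwards may be understated. Cdk1, the kinase that drives entry into mitosis, ranged over 4.87, 6.53 and 8.63 (lowest, median and highest log2 level over the control rats). Mki67, which encodes the proliferation antigen Ki-67, ranged over 4.15, 5.50 and 7.65. The SD of Cdk1 over the control rats was 0.80. By duration the control medians of Cdk1 were 6.82 at 1 d (52 rats), 6.56 at 3 d (72 rats) and 6.24 at 5 d (85 rats), in sets that differ in vehicle and campaign too.

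The control level of Cdk1 also differed between vehicles, routes and campaigns. The lowest medians were 4.97 in the 2 saline mini-pump controls at 3 d of the first campaign and 5.02 in the 3 corn oil gavage controls at 3 d of the fourth. The highest median of a set with at least 5 rats was 7.58, in the 9 water gavage controls at 1 d of the first campaign, whose highest value was 7.91. A mini-pump is implanted under the skin and releases its load steadily, and the mini-pump medians lay between 4.97 and 5.85. Every compound was therefore set against its matched controls alone.

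**Figure D1:**
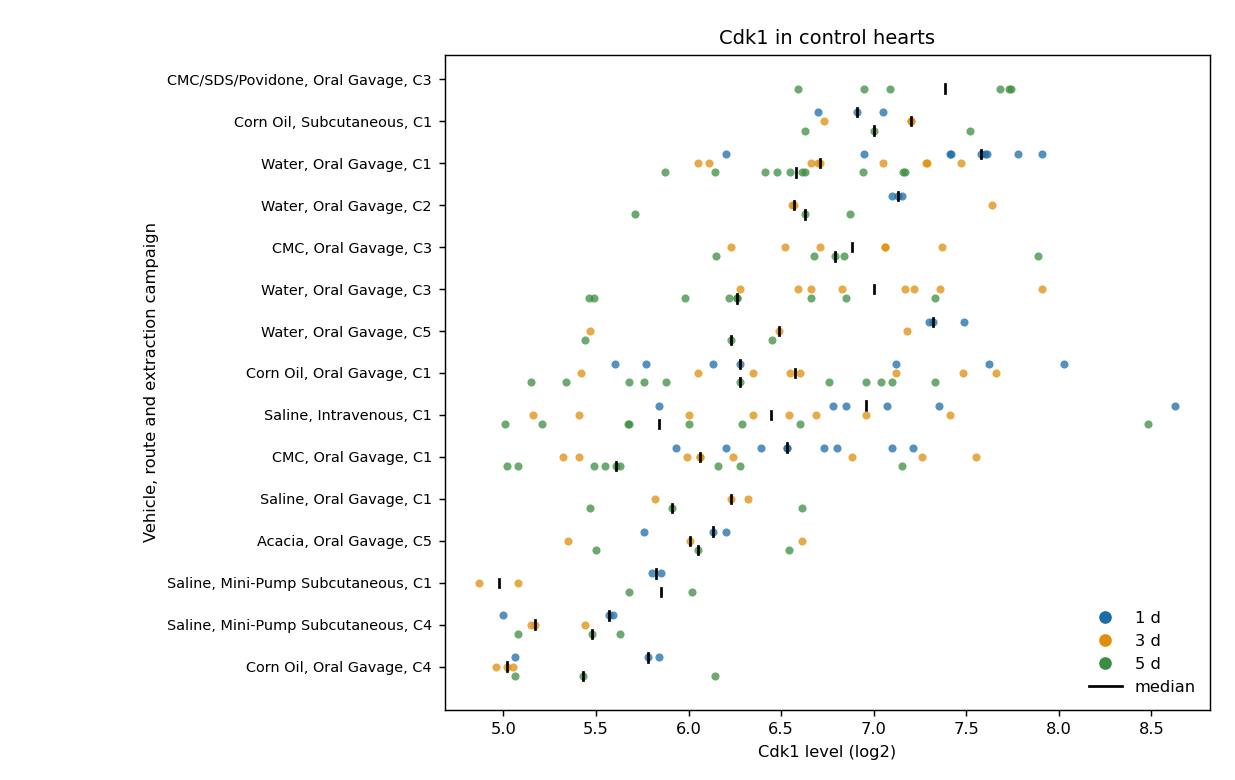
Log2 level of Cdk1 (horizontal axis) in each control rat, by vehicle, route and campaign (C1 to C5, vertical axis, those with at least 5 rats over all durations), with colours for 1, 3 and 5 d and a black bar at each median. The 9 water gavage rats of the first campaign at 1 d reach 7.91 around a median of 7.58, and the 9 CMC gavage rats of that campaign at 5 d between 5.02 and 7.15.

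Over all 840 rats most members varied together. The median of the 630 pairwise Pearson correlations was 0.53, and the pairs spanned -0.29 to 0.95. The closest pair was Cdk1 and Prc1 (r = 0.954), a microtubule bundler of the spindle midzone, and Top2a and Mki67 had r = 0.932. Within the 5 campaigns the median correlation was between 0.37 and 0.73, and among the control rats it was 0.53. These are descriptions over rats that share batches and controls.

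A few members did not follow the others. The correlation with the mean of the other members was 0.153 for Kif2c, a microtubule-depolymerising motor, 0.157 for Ccne1, the cyclin of the entry into DNA synthesis, and 0.174 for Cdc25b, a phosphatase that activates cyclin-dependent kinases. It was 0.316 for Rrm1, 0.346 for Tyms and 0.401 for Pcna, which serve DNA synthesis, against 0.942 for Cdk1. Over the control rats the SD was 0.21 for Kif2c and 0.27 for Ccne1, against 0.58 for Cdc25b and 0.80 for Cdk1. The part of a small spread in the low correlations was not tested. Outside the list, the genes whose levels were most like the members' mean were Cdkn3 (r = 0.922), Cks2 (0.913), Kif18b (0.908), Pclaf (0.894) and Kif22 (0.893), all over 840 rats. The median of 55 other mitosis genes in each rat had r = 0.944 with the members' mean.

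The promoters of many members carry short elements that are known from late cell cycle genes. RefSeq windows of 300 bases around the start (250 before it and 50 after, build GRCr8) were found for 33 of the 40 genes and 33469 genes in all. The cell cycle homology region TTTGAA, on either strand, was in 19 of the 33 member windows (57.6%) and in 18.3% of all windows. CCAAT on either strand was in 22 (66.7%) against 37.5%, and both elements together were in 15 (45.5%) against 7.41%. An E2F core, TTCCCGC or TTGGCGC on either strand, was in 6 (18.2%) against 6.26%. A match describes the letters of a window and not a bound site.

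The 150 bases before the annotated start are given for 5 members on which the results below turn. Cdk1 (chr20:19265143-19265292, plus strand), Ccnb2 (chr8:79981659-79981808, minus strand) and Prc1 (chr1:143659331-143659480, plus strand) were among the members called most often, whereas Cdc25b (chr3:138860023-138860172, plus strand) and Tyms (chr9:120776084-120776233, minus strand) were called in 1 direction alone. Capitals mark TTTGAA, the E2F core TTGGCGC and the element CCAAT, which reads as ATTGG where it lies on the opposite strand, and each sequence is written 5′ to 3′ on the gene's strand, from RefSeq.
Cdk1: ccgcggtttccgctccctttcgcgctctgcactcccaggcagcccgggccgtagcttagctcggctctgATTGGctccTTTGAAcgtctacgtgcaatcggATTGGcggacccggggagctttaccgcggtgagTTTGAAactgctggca
Ccnb2: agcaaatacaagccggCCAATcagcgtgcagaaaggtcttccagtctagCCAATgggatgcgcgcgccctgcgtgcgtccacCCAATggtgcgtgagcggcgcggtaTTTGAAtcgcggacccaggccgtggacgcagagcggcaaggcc
Prc1: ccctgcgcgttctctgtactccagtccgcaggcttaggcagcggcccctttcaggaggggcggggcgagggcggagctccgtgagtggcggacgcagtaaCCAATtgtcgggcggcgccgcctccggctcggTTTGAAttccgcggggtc
Cdc25b: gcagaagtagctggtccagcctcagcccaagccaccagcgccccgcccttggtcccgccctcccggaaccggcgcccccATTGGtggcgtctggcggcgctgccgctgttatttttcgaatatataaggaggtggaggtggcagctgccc
Tyms: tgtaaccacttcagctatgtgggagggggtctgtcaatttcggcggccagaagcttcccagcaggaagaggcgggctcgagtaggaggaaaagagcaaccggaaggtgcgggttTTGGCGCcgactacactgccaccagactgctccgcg
The first 3 of these hold TTTGAA close to CCAAT, Cdc25b holds 1 CCAAT on the opposite strand and no TTTGAA, and Tyms holds TTGGCGC alone. Of the 8 members with a window that were called in 10 or more profiles, 6 held both TTTGAA and CCAAT, as did 4 of 13 called in 1 to 9 profiles and 5 of 10 never called.

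A member was called when its adjusted p in limma, over all 14217 genes of the profile, was 0.01 or less and its change was 1.5-fold or more. In 38 of the 95 profiles at least 1 member was called, in 31 of them only downwards, in 2 only upwards and in 5 both ways. Over the 3420 pairs of a member and a profile 210 calls were lower (6.14%) and 47 higher (1.37%), against 0.344% and 0.357% of the pairs of all genes. The median change of the 36 members was below 0 in 79 profiles and above 0 in 16, whereas the median of all genes was below 0 in 57. Many profiles share their control rats, so these counts are not independent of each other.

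Cdk1 was called most often, lower in 23 profiles and higher in 3. Prc1 followed with 22 lower and 2 higher, then Nusap1, a spindle microtubule protein, with 18 and 2, and Ube2c, which tags mitotic cyclins for destruction, with 18 and 1. Mki67 and Top2a, the topoisomerase that untangles sister chromosomes, were each lower in 17 and higher in 2. Cdc25b was lower in 13 profiles and higher in none, and Tyms was the reverse, higher in 5 and lower in none. The 10 members called in no profile were Aurka, Birc5, Bub1b, Ccne1, Cdc20, Kif11, Kif23, Kif2c, Plk1 and Ttk. Several of them stood low in the control rats, where a fall may be missed, with means of 4.32 for Ttk, 4.65 for Bub1b and 4.84 for Aurka. Plk1 (6.67) and Ccne1 (6.47) stood higher, and Ccna2, at 4.41, was called. In 15 profiles 8 or more members were called.

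**Figure D2:**
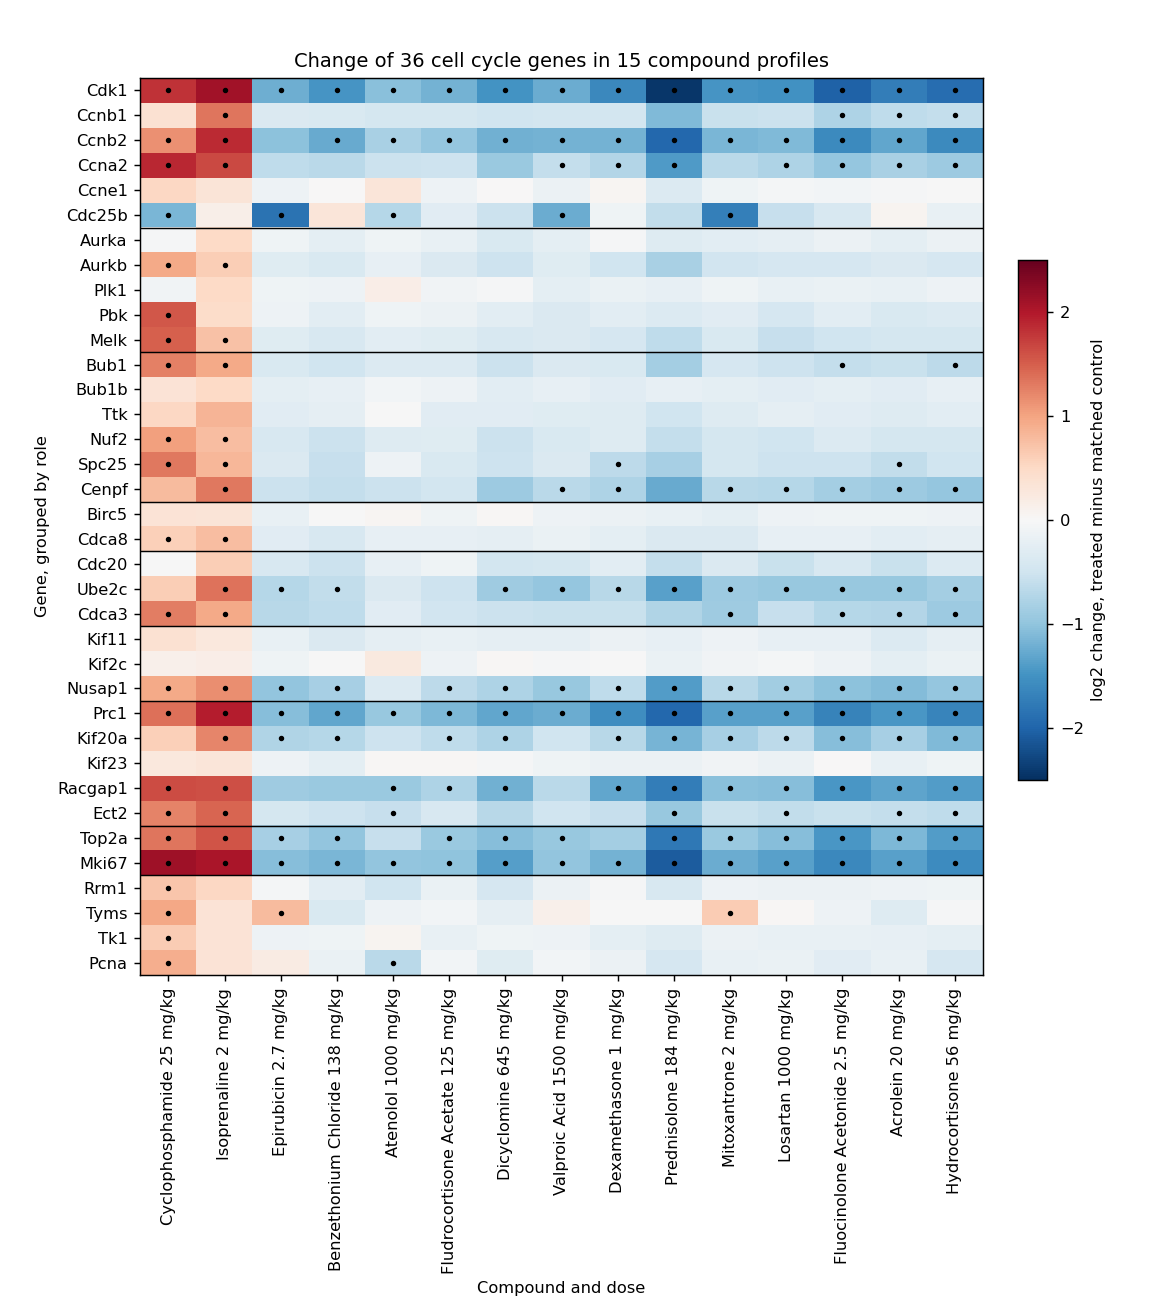
Log2 change, treated minus control, of the 36 measured members (rows, by role) in the 15 profiles with 8 or more members called (columns), blue below 0 and red above, with a dot where the member was called. Cyclophosphamide and isoprenaline show 21 and 20 members called higher, and the other 13 profiles between 8 and 15 called lower.

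Cyclophosphamide at 25 mg/kg in water by gavage, an alkylating drug that damages the DNA of dividing cells, gave the broadest rise. Of the 36 members 21 were called higher and 1 lower (6 treated rats, 19 controls), against 1.62% and 0.267% of all genes. Mki67 rose by 2.12 (SE 0.27, adjusted p = 8.48e-06), a 4.33-fold change, and Cdk1 by 1.80 (SE 0.24, adjusted p = 1.59e-05). The rise covered the cyclin Ccna2 (1.88), the kinases Pbk (1.54), Melk (1.49) and Aurkb (0.95), the kinetochore genes Bub1, Spc25 and Nuf2 (1.25, 1.33 and 1.02) and the cytokinesis genes Racgap1 (1.64), Prc1 (1.38) and Ect2 (1.24). It also covered the DNA synthesis genes Tyms (0.96), Pcna (0.91), Rrm1 (0.70) and Tk1 (0.64), of which no other profile had more than 1 called.

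At 3 d Cdk1 was at 7.81, 7.74 and 8.02 in the cyclophosphamide rats, against a lowest, median and highest level of 6.05, 6.71 and 7.47 in 9 control rats. At 5 d it was at 8.47, 9.59 and 9.34 in treated rats, against 5.87, 6.58 and 7.17 in 10 controls. Every treated rat lay above every control of its duration, and the gap was wider at 5 d. Mki67 followed, with 6.52, 7.11 and 7.88 at 3 d and 7.69, 9.38 and 8.78 at 5 d in treated rats, against 5.31 to 6.50 and 5.16 to 6.13 in controls. Pcna, the clamp that holds DNA polymerase, was at 11.00, 11.72 and 11.31 at 5 d in treated rats, against 9.87 to 10.32 in controls. In 8 members (Cdk1, Ttk, Nuf2, Spc25, Cdca8, Cdca3, Mki67 and Pcna) every treated rat stood above every control of its duration, against 0.844% of all genes.

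Taken by duration, 27 members were called higher at 5 d (1.42% of all genes), the exceptions being Ccnb1, Ccne1, Cdc25b, Aurka, Plk1, Birc5, Cdc20, Kif2c and Kif23. At 3 d Melk alone was called higher (0.633% of genes) and Cdc25b alone lower (0.106%). The difference between the durations was not past the threshold for any member (adjusted p = 0.122 for Mki67 and 0.250 for Cdk1). Ccnb1, the cyclin B1 gene, did not pass over both durations (0.38, SE 0.13, adjusted p = 0.0783), with 4.92 to 6.02 in treated rats and 4.85 to 5.65 in controls. Cdc25b went the other way, at 6.73, 6.88, 6.39, 6.86, 7.25 and 6.62 in the 6 treated rats against 7.39 to 8.39 in the 19 controls, a change of -1.15 (SE 0.13, adjusted p = 1.38e-06) without overlap.

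Genes of the same pathway outside the list rose with them. Of 55 other mitosis genes 26 were called higher and none lower (median change 0.66), and of 51 other DNA replication genes 24 were called higher (median 0.57). Of 11 p53 targets 6 were called higher (median 0.62), as were 4 of 22 genes of cell cycle entry and its brakes. Lymphocyte genes were at a per-rat median of 4.66 to 5.00 in treated rats and 4.79 to 5.26 in controls, and macrophage genes at 7.53 to 8.43 and 7.11 to 8.21, with 2 of 12 called higher. Red blood cell genes were at 5.16 to 5.68 in treated rats and 6.08 to 7.53 in controls, with 4 of 8 called lower. The part of these cells in the members' change was not tested. The treated rats' own study supplied a single matched control, at 5 d, so this contrast rests on controls of other studies of the campaign. Against that 1 rat Cdk1 changed by 2.65 and Mki67 by 3.22, a fit in which a single control leaves little power (adjusted p = 0.435 for both).

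Isoprenaline, a beta-adrenergic agonist that drives the heart, was infused at 2 mg/kg in saline by subcutaneous mini-pump. It raised 20 members and lowered none (8 treated rats and 9 controls, all of 1 study), against 1.05% of all genes called higher. Cdk1 rose by 2.11 (SE 0.30, adjusted p = 0.000847), Mki67 by 2.04 (SE 0.34, adjusted p = 0.00180), Prc1 by 1.96 and Ccnb2, the cyclin B2 gene, by 1.86. Ccnb1 (1.33), Ube2c (1.36), Cenpf (1.32) and Kif20a (1.22), a cytokinesis motor, were called here and not after cyclophosphamide. None of the 4 measured DNA synthesis genes was called, Tyms changing by 0.33 (adjusted p = 0.0570), Pcna by 0.35 (adjusted p = 0.0417) and Rrm1 by 0.52 (adjusted p = 0.00502, under the fold minimum). Cdc25b changed by 0.15 (adjusted p = 0.570). By the methods' plain test 12 members were called higher.

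Cdk1 at 1 d was at 6.31, 5.95 and 8.54 in isoprenaline rats against 5.57, 5.00 and 5.59 in controls, so 1 treated rat was far above the others. At 3 d Cdk1 was at 6.75 and 7.60 in treated rats against 5.15, 5.44 and 5.17 in controls, and at 5 d at 8.02, 8.27 and 8.34 in treated rats against 5.08, 5.48 and 5.63 in controls. The groups did not overlap at any duration, and the 3 rats at 5 d lay close together. Mki67 at 5 d was at 7.21, 7.54 and 7.66 in treated rats against 4.57, 4.55 and 4.68 in controls, and at 1 d at 5.33, 4.97 and 7.67 in treated rats against 5.08, 4.58 and 5.05 in controls, where the groups overlapped. For 14 members every treated rat lay above every control of the same duration, against 1.28% of all genes. At 5 d alone, with 3 rats on each side, Prc1 was the single member called (2.91, SE 0.38, adjusted p = 0.00518), against 0.0492% of all genes. At 5 d Prc1 was at 8.54, 8.74 and 8.82 in treated rats and at 5.96, 5.75 and 5.66 in controls.

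Of 55 other mitosis genes 13 were called higher after isoprenaline at 2 mg/kg, as were 2 of 51 other replication genes. Fibroblast and matrix genes rose too, 7 of 14 called higher with a median change of 0.99, their per-rat median running between 10.34 and 12.28 in treated rats and between 10.05 and 10.52 in controls. Macrophage genes ran between 8.20 and 9.69 in treated rats and between 7.77 and 8.45 in controls, with 1 of 12 called. The part of these cells in the members' change was not tested.

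At 4.2 mg/kg of isoprenaline, given by the same route in an earlier campaign for 3 and 5 d (5 treated rats and 4 controls), Cdk1 and Ccnb2 were called, against 0.148% of all genes. Cdk1 was at 8.32, 7.09 and 7.64 at 3 d and 8.19 and 7.43 at 5 d in treated rats, against 5.08 and 4.87 at 3 d and 5.68 and 6.02 at 5 d in controls, and changed by 2.37 (SE 0.27, adjusted p = 0.00614). Mki67 changed by 2.38 but missed the threshold (SE 0.36, adjusted p = 0.0133). With so few rats 28 members lay wholly above the controls, as did 8.98% of all genes. The dose, the campaign and the durations differ from the 2 mg/kg profile, so the sizes are only set side by side.

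After other agents that load or stimulate the heart limma called no member in either direction, and of all genes it called 0.0211% higher after norepinephrine and none after the others. Cdk1 changed by 0.50 after norepinephrine at 1.75 mg/kg (SE 0.29, adjusted p = 0.477), by 0.08 after L-phenylephrine at 0.44 mg/kg (SE 0.17), by 0.26 and 0.41 after angiotensin II (labelled Angiotensin II Human) at 0.5 and 0.72 mg/kg (SE 0.12 and 0.30), by 0.12 after aldosterone at 0.065 mg/kg (SE 0.26) and by 0.27 after dobutamine at 15 mg/kg (SE 0.16). Dobutamine was given by gavage and the others by mini-pump, with 4 or 9 controls each. At an unadjusted p under 0.05 were 8 members after norepinephrine, 2 after L-phenylephrine, 15 and 1 after angiotensin II, 3 after aldosterone and 6 after dobutamine, where 2107, 1161, 1773, 1190, 864 and 2545 of the 14217 genes were. The 15 after angiotensin II at 0.5 mg/kg were all higher, Top2a by the most (0.39, SE 0.09), as were the 6 after dobutamine. Mini-pump controls of the first campaign are shared by several of these profiles and by isoprenaline at 4.2 mg/kg.

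**Figure D3:**
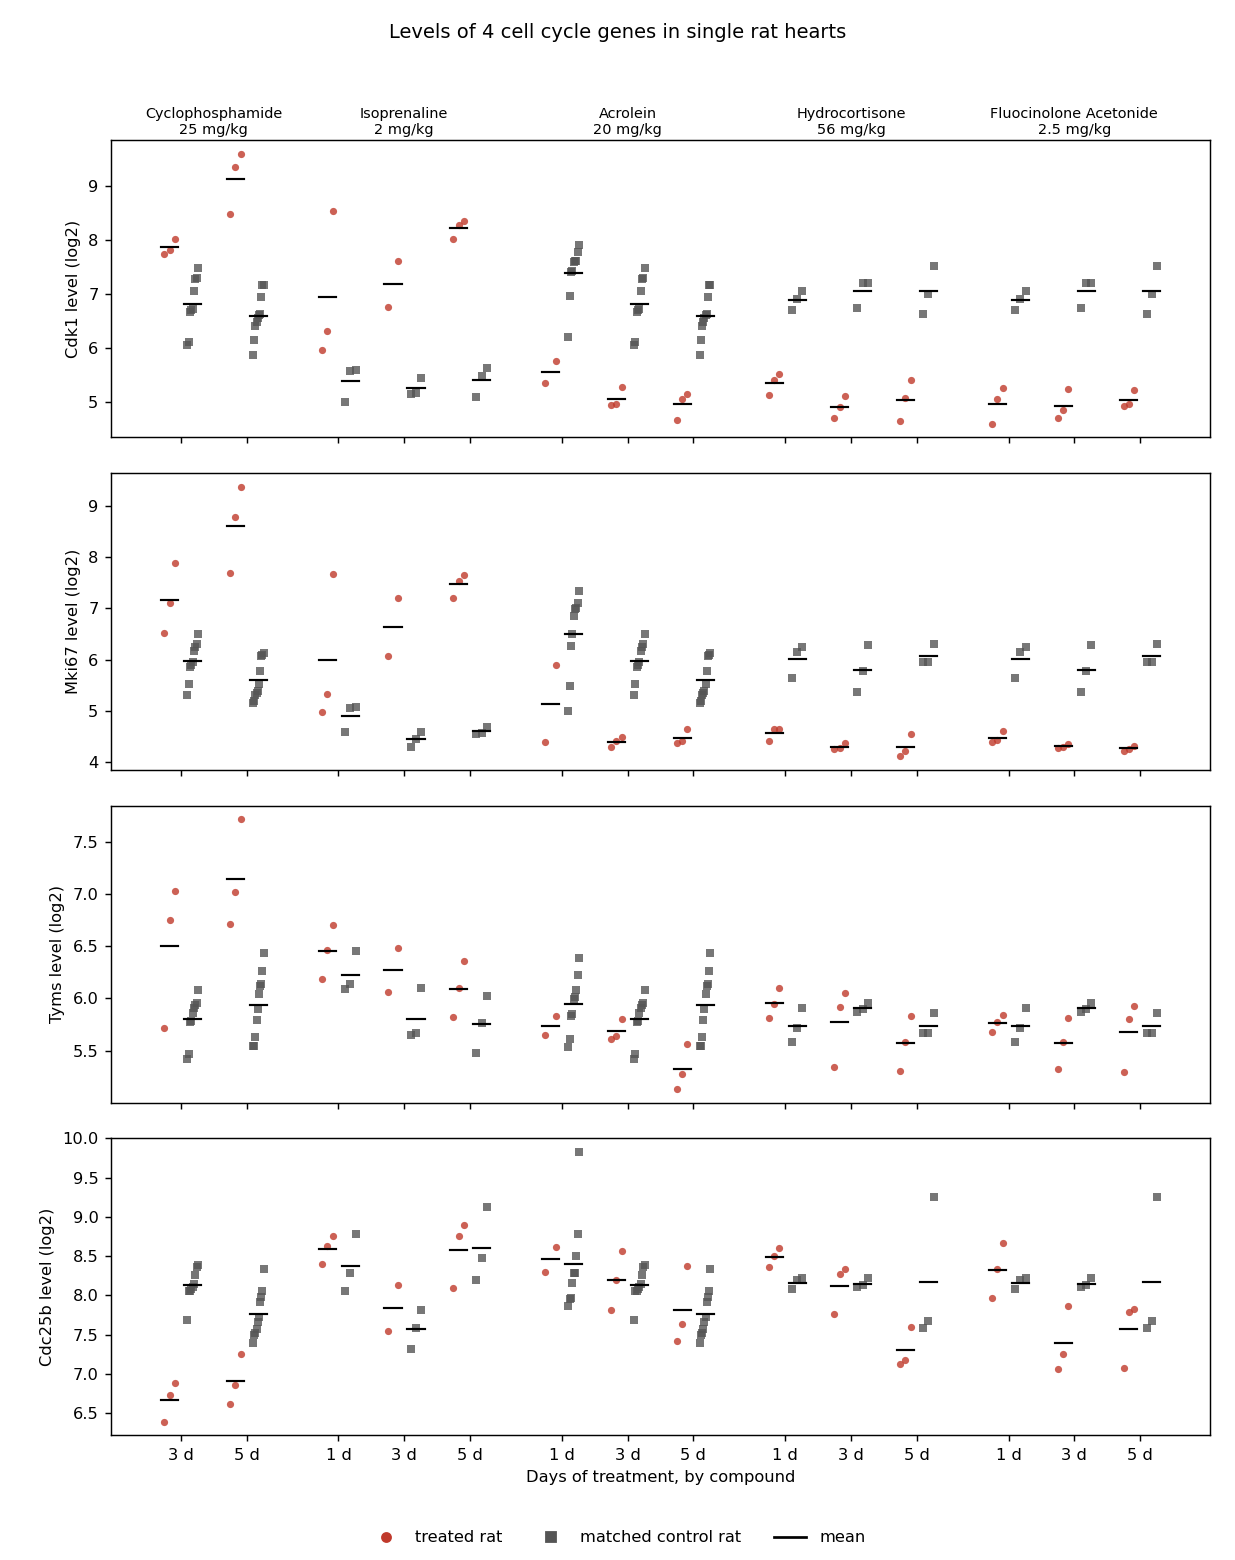
Log2 level of Cdk1, Mki67, Tyms and Cdc25b in every rat of 5 profiles, treated rats as red circles left of their controls as grey squares, with a bar at each mean. Cdk1 after hydrocortisone sits between 4.64 and 5.51, below all controls (6.63 to 7.52), and after cyclophosphamide between 7.74 and 9.59, above all controls of the same duration.

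Glucocorticoids, hormones that restrain inflammation and tissue growth, lowered mitotic members in 6 of 7 profiles. Cdk1, Ccnb2, Prc1 and Kif20a were called lower in each of the 6. Hydrocortisone at 56 mg/kg, injected under the skin in corn oil (9 treated rats and 9 controls), lowered 15 members and raised none, against 2% of all genes called lower. Cdk1 was at 5.51, 5.12 and 5.40 at 1 d, at 4.70, 5.11 and 4.91 at 3 d and at 5.40, 5.07 and 4.64 at 5 d in treated rats, against 6.91, 7.05 and 6.70, then 7.20, 6.73 and 7.20, then 7.00, 7.52 and 6.63 in controls. No treated rat overlapped a control at any duration, and the change was -1.90 (SE 0.13, adjusted p = 9.59e-08), or 3.73-fold. Mki67 was at 4.11 to 4.65 in treated rats and 5.37 to 6.30 in controls. Prc1 (-1.65), Ccnb2 (-1.59), Top2a and Racgap1 (both -1.39) and Kif20a (-1.10) followed, and 18 members lay below all controls of their duration, against 2.49% of all genes. Tyms changed by little (-0.03, SE 0.10, adjusted p = 0.891).

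Fluocinolone acetonide at 2.5 mg/kg, a potent synthetic steroid given the same way and set against the same 9 controls, lowered 14 members (3.28% of all genes). Cdk1 was at a lowest, median and highest level of 4.59, 4.96 and 5.25 in treated rats, below the 6.63 to 7.52 of the controls, and changed by -2.02 (SE 0.12, adjusted p = 1.97e-09). Prc1 changed by -1.68, Mki67 by -1.61, Ccnb2 by -1.60 and Ccnb1 by -0.77. The doses of the steroids differ, so they are not compared with each other.

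By gavage, prednisolone at 184 mg/kg in water, at 1 d alone, lowered 11 members (0.492% of genes), with Cdk1 at 5.10, 4.77 and 4.97 in treated rats against 6.20, 7.58 and 7.91 (lowest, median and highest of 9 controls), a change of -2.44 (SE 0.26, adjusted p = 5.21e-05). Without any 1 of the 3 prednisolone rats 3, 6 or 3 members were called, without 1 of the controls 19, and by the methods' plain test 2. Dexamethasone at 1 mg/kg in corn oil lowered 11 (3.68% of genes), with Cdk1 at 4.85, 4.62 and 4.89 at 3 d and 5.11, 5.14 and 4.55 at 5 d in treated rats, against 5.42 to 7.66 and 5.15 to 7.33 in 19 controls, a change of -1.60 (SE 0.30, adjusted p = 0.000176). The count for dexamethasone was 7 without any 1 of the 3 rats at 3 d or 1 of those at 5 d, 7 by the plain test and 4 with controls of every campaign. In both profiles the treated rats lay below every control of their duration. Fludrocortisone acetate at 125 mg/kg in CMC lowered 8 (0.753% of genes) with Cdk1 at -1.19 (SE 0.21), and prednisone at 68 mg/kg in CMC lowered 6 (0.267%) with Cdk1 at -1.45 (SE 0.22, adjusted p = 0.00113). Cortisone at 206 mg/kg in CMC, set against the same 9 controls as prednisone, had no member called by limma and 25 at an unadjusted p under 0.05. Its Cdk1 changed by -1.28 (SE 0.22, adjusted p = 0.141), with 5.07 to 5.65 in 3 treated rats and 5.93 to 7.21 in 9 controls, and 18 members lay below all controls against 0.703% of all genes.

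Fibroblast and matrix genes fell with the members after several of the steroids. They were called lower for 8 of 14 after hydrocortisone (median -0.88), 10 after fluocinolone acetonide (-1.74), 10 after dexamethasone (-1.69) and 7 after fludrocortisone acetate (-0.54). Their per-rat median ran between 8.98 and 10.49 in hydrocortisone rats and between 10.21 and 10.78 in controls. Macrophage genes were called higher for 6 of 12 after hydrocortisone, 6 after fluocinolone acetonide and 7 after dexamethasone. After prednisolone the fibroblast median was 10.01 to 10.39 in treated rats and 10.04 to 10.57 in controls, with 0 of 14 called. The part of these cells in the members' change was not tested.

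After 6 compounds that are neither steroids nor drugs on dividing cells 8 or more members were called lower. Cdk1, Ccnb2, Prc1 and Mki67 were called in each of the 6. Acrolein at 20 mg/kg in water, a reactive aldehyde, lowered 15 (8 treated rats, 28 controls, 1.13% of genes). Cdk1 was at 5.76 and 5.34 at 1 d, 4.94, 4.95 and 5.28 at 3 d and 4.66, 5.14 and 5.05 at 5 d in treated rats, against 6.20 to 7.91, 6.05 to 7.47 and 5.87 to 7.17 in controls, again without overlap, and changed by -1.74 (SE 0.17, adjusted p = 4.43e-09). Macrophage genes were called higher for 5 of 12, at a per-rat median of 7.89 to 8.61 in treated rats and 7.11 to 8.21 in controls. The rat with the highest Mki67 of the treated (5.89, at 1 d, others 4.29 to 4.65) also had a lymphocyte median of 6.56, against 4.79 to 5.32 in the controls.

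Losartan at 1000 mg/kg in water, an angiotensin receptor blocker, lowered 12 members (0.373% of genes), with Cdk1 at 4.77, 5.20 and 6.79 (lowest, median and highest of 9) against 5.87, 6.95 and 7.91 in 28 controls, overlapping, and a change of -1.50 (SE 0.17, adjusted p = 3.73e-07). Valproic acid at 1500 mg/kg lowered 10 (0.703%), Cdk1 by -1.24 and Cdc25b by -1.24, and dicyclomine at 645 mg/kg lowered 9 (0.127%), Cdk1 by -1.50. Benzethonium chloride at 138 mg/kg lowered 8 (0.127%), Cdk1 by -1.47 (SE 0.18, adjusted p = 7.42e-05), with 9 members below all controls against 0.197% of genes. Atenolol at 1000 mg/kg, a beta blocker given in CMC, lowered 8 (2.4%), Cdk1 by -1.04 (SE 0.18, adjusted p = 0.00113), while 10 of 14 fibroblast genes were called lower. One atenolol array had a heart muscle median of 12.1, and without arrays that stood apart 5 members were called. Leaving out 1 of 4 atenolol rats gave 2 to 5 and leaving out 1 of 9 of its controls gave 5. Heart muscle medians were 12.256 in 1 dicyclomine rat and 12.435 in 1 of the dicyclomine controls. Dicyclomine had 2 to 5 called without any 1 of its 7 rats, 5 without 1 of 15 of its controls, 3 with the study as a random block and 0 against controls of its own study.

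Between 4 and 7 members were lower in 10 more profiles, 1 of which was prednisone. Buspirone at 196 mg/kg lowered 7 (0.113% of genes) and changed Cdk1 by -1.67 (SE 0.22, adjusted p = 0.00216). Etidronate at 1005 mg/kg lowered 7 (0.274%), Cdk1 by -1.25, phenytoin at 572 mg/kg 6 (0.0985%), Cdk1 by -1.30, and sulindac at 132 mg/kg 5 (2.05%), Cdk1 by -1.37. Fenofibrate at 215 mg/kg lowered 5 (0.591%), dexfenfluramine at 29 mg/kg 4 (0.183%), guanethidine at 132 mg/kg 4 (1.17%), chlorobenzene at 500 mg/kg 4 (1.41%) and chlorpropamide at 269 mg/kg 4 (0.436%).

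Chlorpropamide, a sulfonylurea given in CMC, was described after its values were seen, since 2 members differed between durations only there. Cenpf, a kinetochore protein, was at 5.57, 5.56 and 5.21 at 1 d, 4.48, 4.61 and 4.50 at 3 d and 4.60, 4.34 and 4.61 at 5 d in treated rats, against 4.77 to 5.68 in 9 controls, 4.99 to 5.92 in 6 and 4.99 to 5.96 in 5. The treated rats were within the controls at 1 d and below them later (interaction adjusted p = 0.00488, and 0.00210 for Pcna), and 5.77% of all genes passed that test. At 3 d and at 5 d 12 members were called lower (1.65% and 3.02% of genes). The 1 d rats belong to another extraction campaign than the later ones, so duration and campaign cannot be told apart here. Among the 2772 pairs of member and profile tested in 77 profiles no other passed.

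The drugs that act on dividing cells often lowered Cdc25b. It was called lower after vinorelbine (-2.06), ifosfamide (-1.93), epirubicin (-1.84), mitoxantrone (-1.71), daunorubicin (-1.51), vinblastine (-1.46), idarubicin (-1.32), azaribine (-1.31) and doxorubicin (-1.22), beside cyclophosphamide. It was also called lower after valproic acid, cyclosporin A at 350 mg/kg (-1.19, 0.865% of genes) and atenolol (-0.70), and after azaribine 0.0352% of genes were called lower. Vinorelbine, a vinca alkaloid that breaks down spindle microtubules, was given at 1.5 mg/kg into a vein in saline, and no other member was called lower (0.0985% of genes). Cdc25b was at 5.95, 5.69 and 6.55 at 3 d and 5.70, 5.46 and 6.00 at 5 d in its 6 treated rats, against 8.00 to 8.79 and 6.61 to 8.43 in 16 controls, without overlap (SE 0.19, adjusted p = 4.67e-07), while Cdk1 changed by -0.12 (SE 0.39, adjusted p = 0.972).

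The anthracyclines and mitoxantrone, which trap topoisomerase II on DNA, were given into a vein for 1, 3 and 5 d and share 22 saline controls, so their values are set side by side. Mitoxantrone at 2 mg/kg lowered 12 members and raised Tyms (0.521% and 0.542% of genes), with Cdk1 at 4.58, 4.99 and 5.54 (lowest, median and highest of 9) against 5.01, 6.44 and 8.63 in controls, and a change of -1.47 (SE 0.29, adjusted p = 0.00148). Its count of lower members was 7 without any 1 of the 3 rats at 1 d, with the study as a random block, by the plain test and without arrays that stood apart, 1 mitoxantrone rat having a liver gene median of 9.45. Epirubicin at 2.7 mg/kg lowered 8 and raised Tyms (1.17% and 1.53% of genes), with Cdk1 at -1.22 (SE 0.31, adjusted p = 0.00427). Doxorubicin at 3 mg/kg, daunorubicin at 3.25 mg/kg and idarubicin at 0.625 mg/kg each had Cdc25b as the only member called lower (0.682%, 0.239% and 0.155% of genes), and the first 2 of them also had Tyms called higher (0.753% and 0.0774% of genes), with Cdk1 at -0.50 (SE 0.31), -0.88 (SE 0.30) and -0.21 (SE 0.34). A missing call does not show that the other members were unchanged after doxorubicin, daunorubicin and idarubicin. The per-rat median of the members had a middle value of 5.34, 5.18 and 5.43 in their treated rats, against 5.52 in the controls. Treated and control ranges of that median overlapped for each of them. The doses differ. Epirubicin had 3 to 5 members called lower without 1 of 5 of its rats, 4 by the plain test and 1 against controls of its own study.

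Tyms, the enzyme that makes thymidylate and the target of fluoropyrimidines, was called higher after 4 of these drugs, beside cyclophosphamide. It was at 6.60, 7.03 and 6.53 at 1 d, 5.94, 7.13 and 6.73 at 3 d and 6.23, 6.67 and 6.50 at 5 d in epirubicin rats, against 5.41 to 6.83, 5.43 to 5.81 and 5.37 to 6.23 in controls. The groups overlapped at 1 d and not at 3 d, and at 5 d the lowest treated and the highest control rat were both at 6.23, for a change of 0.79 (SE 0.13, adjusted p = 3.38e-05). It changed by 0.72 after doxorubicin (adjusted p = 0.000290), 0.64 after mitoxantrone (adjusted p = 0.00112) and 0.59 after daunorubicin (adjusted p = 0.00836), against the same controls. After chlorambucil at 4.5 mg/kg the change of 0.56 missed the threshold (adjusted p = 0.0489).

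Ifosfamide at 143 mg/kg in saline by gavage, an isomer of cyclophosphamide, lowered Cdc25b and Ube2c (0.352% of genes) and raised no member, in 6 treated rats and 6 controls of 1 study. Cdc25b was at 6.89, 7.14 and 6.45 at 3 d and 6.17, 6.30 and 6.52 at 5 d in treated rats, against 7.36, 8.33 and 9.53 and 8.72, 8.17 and 8.91 in controls, all higher. Cdk1 was at 5.03 to 6.71 in treated rats and 5.47 to 6.61 in controls, a change of -0.13 (SE 0.22, adjusted p = 0.858). The dose, the vehicle and the controls differ from those of cyclophosphamide, so the pair is given side by side and not compared. Vinblastine at 0.3 mg/kg lowered Cdc25b (0.317% of genes) and changed Mki67 by 0.82 (SE 0.36, adjusted p = 0.212).

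Chlorambucil, rapamycin at 60 mg/kg and imatinib at 15 and 150 mg/kg had no member called by limma. At an unadjusted p under 0.05 were 2, 18, 2 and 2 members. Of all genes 0.0844% were called higher and 0.0703% lower after chlorambucil, 0.415% and 0.0985% after rapamycin, 0.0281% and 0.19% after imatinib at 150 mg/kg, and none after imatinib at 15 mg/kg. After rapamycin, an inhibitor of the growth kinase mTOR, Cdk1 was at 4.92 to 5.38 in 6 treated rats and 5.02 to 7.55 in 18 controls (-0.86, SE 0.27, adjusted p = 0.0798). The 2 doses of imatinib, a tyrosine kinase inhibitor, were given in the same vehicle and campaign and could be compared directly, 9 rats against 9. No member passed the test between 150 and 15 mg/kg, where 20 genes of 14217 did (0.141%), and 2 of 36 members had an unadjusted p under 0.05 (1494 of all genes). The median difference of the members was 0.003, and the widest 95% interval of a member was that of Mki67, between -0.44 and 0.40. The largest difference of a member was that of Cdc25b, at -0.61 (95% interval -0.92 to -0.30, adjusted p = 0.0642). Against its own controls Cdc25b changed by -0.65 after 150 mg/kg (SE 0.15, adjusted p = 0.0429), where the red blood cell genes had a per-rat median of 5.84 to 6.80 in treated rats and 6.28 to 7.04 in controls. The part of these cells in the change of Cdc25b was not tested.

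**Figure D4:**
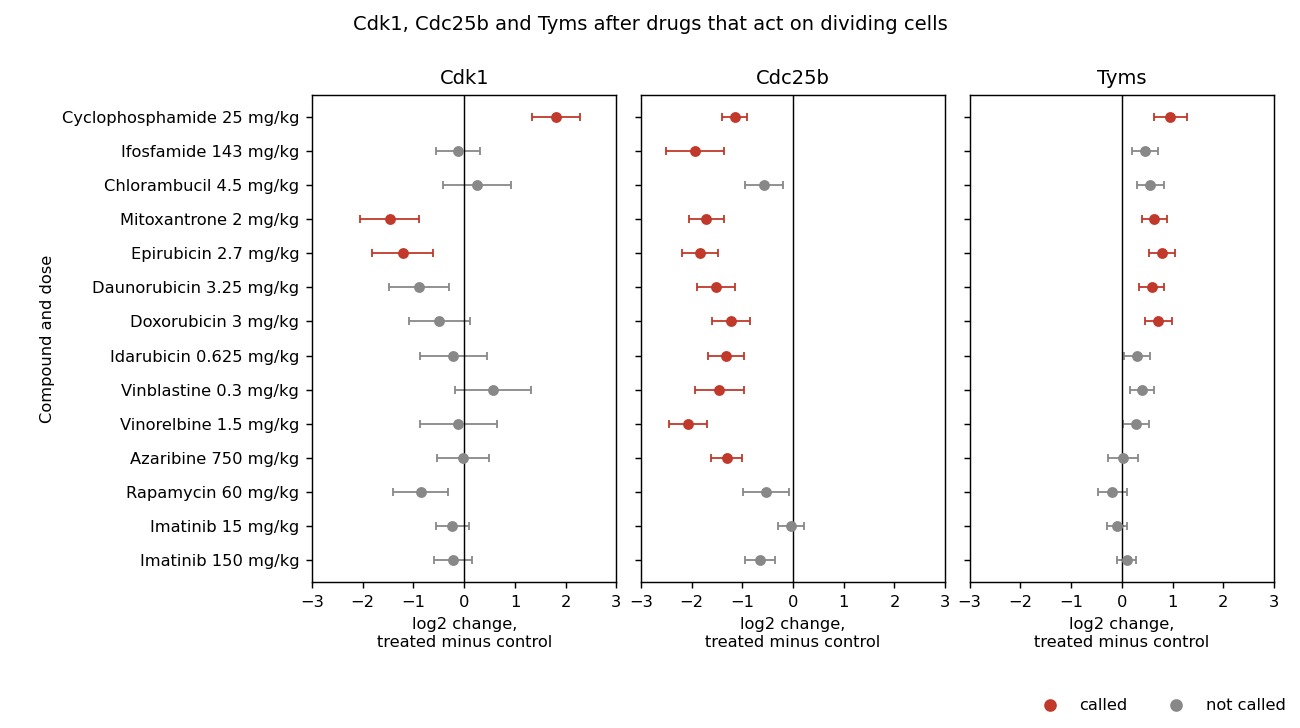
Log2 change, treated minus control, of Cdk1, Cdc25b and Tyms after drugs that act on dividing cells, points with 95% intervals from the SE, red where called. Cdc25b lies between -2.06 and -1.15 in the 10 profiles where it was called, while Cdk1 reaches 1.80 after cyclophosphamide and -1.47 after mitoxantrone.

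Cdc25b moved with the genes of red blood cells. The red blood cell list was called lower for 4 of 8 genes after cyclophosphamide, mitoxantrone, epirubicin, doxorubicin, vinorelbine, valproic acid and cyclosporin A at 350 mg/kg, for 3 after daunorubicin, idarubicin, vinblastine and ifosfamide, and for 2 after azaribine and atenolol. After vinorelbine its per-rat median was 5.16 to 5.86 in treated rats and 6.16 to 7.57 in controls. Over all 840 rats Cdc25b had r = 0.739 with that median, with 0.731 among treated rats, 0.627 among control rats and 0.612 to 0.844 within campaigns. Cdk1 had r = 0.220 over all rats and 0.032 among treated rats, with 0.418 among control rats and 0.176 to 0.447 within campaigns. The rats share batches, and the part of blood in the hearts in the level of Cdc25b was not tested.

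**Figure D5:**
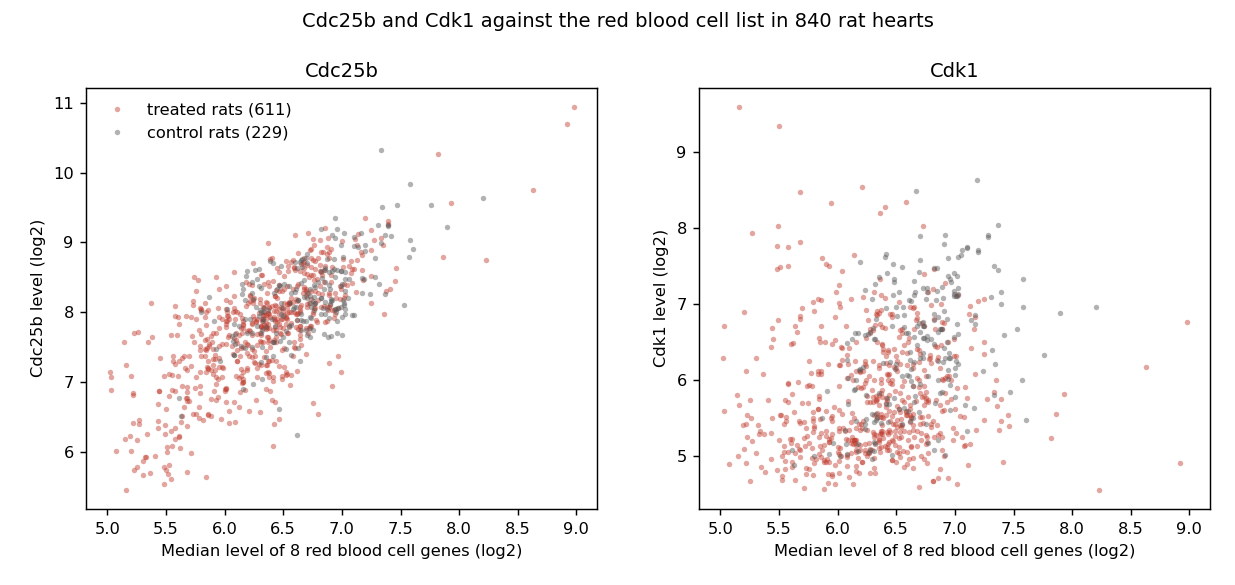
Log2 level of Cdc25b and of Cdk1 (vertical axes) against the median log2 level of the 8 red blood cell genes (horizontal axis), 1 point per rat, treated rats in red and control rats in grey. Cdc25b climbs with the list (r = 0.739, 840 rats), whereas Cdk1 scatters (r = 0.220).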

How the data were processed

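RNA from the hearts was measured on Affymetrix whole-genome rat arrays (862 arrays, 840 rats). The authors deposited log2 values per probe set. RMA, named in the submitters' notes without a version, subtracts background, equalises the distributions of arrays and combines the probes of a set. The methods of the study name frma and frmaTools for its own work. Normalization between arrays assumes like distributions, and summarised signals near the floor understate changes of low genes. Arrays have no read depth, and the number of rats limits the precision. Of 31099 probe sets 57 were controls, 20826 had 1 symbol, 436 several and 9780 none, symbols were taken from the platform annotation, and 20758 matched a rat gene table. Of a gene's probe sets that of the highest mean was used (a choice for 4525 of 14217 genes). Of 22 rats with 2 arrays the one of the earlier extraction was used. Groups came from the labels, and 12 controls whose title and other labels disagree on vehicle or route entered no comparison. Extraction campaigns were runs of extraction dates.

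Treated rats were set against controls matched for vehicle and route, duration and campaign. The linear models were fitted with limma 3.58.1 under R 4.3.3, tables being read by data.table (version 1.17.8), and duration together with campaign formed 1 factor. The Benjamini-Hochberg adjustment ran over all 14217 genes, and a call needed an adjusted p no higher than 0.01 together with a change of at least 1.5-fold. Differences between durations were tested as an interaction. Named with values were the members, for profiles with 8 or more members called, drugs acting on dividing cells, glucocorticoids and growth stimuli, and the genes most like the members. The members, the lists and these rules were chosen with earlier results of these data known. The alternatives were controls of every campaign or of the treated rats' own study, hybridisation batch or study as a random block, the mean of a gene's probe sets, the upper 60% of genes by mean, quantile normalization, no fold minimum, the methods' plain test per gene, the later array of a rat, groups by title, leaving out 38 arrays that stood apart, and leaving out each rat. The fit was tested on simulated data of 14217 genes. With the rats of the cyclophosphamide comparison it called 96% of genes changed by 0.8 and 100% of those changed by 1.2 or more. With those of hydrocortisone it called 94% and 96% or more, with 1 false call each. The simulated noise was independent between rats and held no effect of study or batch, so calls that such effects might cause were not tested. Promoter sequences came from RefSeq (GRCr8). Plots were made in Python 3.11.15 (matplotlib 3.10.9).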

Additional observations from a re-analysis of the deposited data

Results flagged for a closer look

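Among 96 combinations of a control set and a measure, in 16 sets of 4 to 10 control rats, 10 had 1 rat far from the others, measured as its gap to the nearest rat over the whole range of the set. Chance sets a rat apart in about 1 in 20 such sets. In the 8 intravenous saline controls at 5 d of the first campaign the highest rat had Cdk1 at 8.48 (next 6.60), Mki67 at 7.41 (next 5.46), Top2a at 7.77 (next 6.02) and a median of the members at 6.41 (next 5.55). These controls serve the anthracyclines, mitoxantrone and the vinca alkaloids. In the 9 CMC gavage controls at 5 d of the first campaign the highest rat had Mki67 at 6.39 (next 5.25), Top2a at 7.13 (next 5.89) and a median of the members at 6.23 (next 5.38).

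Cdc25b stood apart in 3 sets. It was at 9.13 in the highest of 6 CMC gavage controls at 3 d of the third campaign (next 8.38), at 9.83 in the highest of 9 water gavage controls at 1 d of the first campaign (next 8.78) and at 7.69 in the lowest of 9 water gavage controls at 3 d of that campaign (next 8.06).

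After chlorpropamide the change of Cenpf (limma interaction, adjusted p = 0.00488) and of Pcna (adjusted p = 0.00210) differed with duration, with duration and campaign not told apart.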

How the results depend on the processing

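Over the 95 profiles a mean of 0.495 members was called higher and 2.21 lower per profile. In the 15 profiles with 8 or more members called no call changed sign under those alternatives that tested it, leaving out single rats aside. Against controls of the own study 36 of the calls in these 15 profiles were kept and 39 were weaker. The kept calls include those of isoprenaline, whose rats and controls are all of 1 study, so its fit is the same under this setting. The remaining calls could not be tested in this way, and for them compound and study cannot be told apart. With controls of every campaign 0.768 were called higher, and the counts of members were 5 for atenolol and 4 for dexamethasone. Against controls of the own study, which 51 profiles had, 0.431 were called higher and 0.451 lower (22 and 23 calls, against 46 and 48 with all matched controls in the same profiles), with 0 for cyclophosphamide (1 control rat), 0 for dicyclomine and 1 for epirubicin. With hybridisation batch as a random block dicyclomine had 5, and with the study as one dicyclomine had 3 and mitoxantrone 7. Among the upper 60% of genes, which hold 8 of the members, 0.0842 were called higher and 0.621 lower, with 2 for acrolein, benzethonium chloride, dexamethasone, dicyclomine, fludrocortisone acetate, fluocinolone acetonide, hydrocortisone, isoprenaline, losartan and prednisolone, 3 for atenolol, epirubicin, mitoxantrone and valproic acid, and 5 for cyclophosphamide. By the methods' plain test 1.42 were called lower, with 7 for dexamethasone, 3 for dicyclomine, 4 for epirubicin, 12 for isoprenaline, 7 for mitoxantrone and 2 for prednisolone. Without 38 arrays that stood apart atenolol had 5 and mitoxantrone 7. With no fold minimum acrolein had 24, atenolol 13, benzethonium chloride 13, fludrocortisone acetate 15 and losartan 23. The cause was not tested.

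Leaving out each rat gave 14 to 17 for acrolein, 2 to 11 for atenolol, 6 to 12 for benzethonium chloride, 19 to 24 for cyclophosphamide, 7 to 14 for dexamethasone, 2 to 11 for dicyclomine, 3 to 12 for epirubicin, 6 to 8 for fludrocortisone acetate, 13 to 15 for fluocinolone acetonide, 14 to 15 for hydrocortisone, 15 to 22 for isoprenaline, 12 to 15 for losartan, 7 to 12 for mitoxantrone, 3 to 19 for prednisolone and 9 to 10 for valproic acid. The count moved by over 1.5 times without any of the 3 prednisolone rats (3, 6 and 3) or 1 of its controls (19), any of the 3 mitoxantrone rats at 1 d (7 each), 5 epirubicin rats (3 to 5), 4 dexamethasone rats (7 each), 4 atenolol rats (2 to 5) or 9 of its controls (5 each), and any of the 7 dicyclomine rats (2 to 5) or 15 of its controls (5 each). No paired analysis was possible because the labels carry no replicate numbers.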

Other observations

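For 2'-Beta-Fluoro-2',3'-Deoxyadenosine at 7.5 mg/kg, which had no matched controls, Cdk1 was at 5.99, 6.50 and 6.40 at 1 d, 6.90, 5.50 and 7.25 at 3 d and 5.93, 5.94 and 7.04 at 5 d in the 9 treated rats. For daunorubicin at 2 mg/kg, also unmatched, Cdk1 was at 6.18, 5.83 and 6.81 at 1 d, 5.54, 5.65 and 5.89 at 3 d and 5.29, 6.10 and 6.00 at 5 d. With controls whose labels conflict grouped by their title, 9 treated rats stood against 8 controls in each, and limma called 0 members and 0 of all genes. At an unadjusted p under 0.05 were 5 members for the first compound and 0 for daunorubicin, where 5.7% and 0.928% of the 14217 genes were.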
